A study of Mus musculus with 12 samples.

Results

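Metallothioneins are small, cysteine-rich proteins that bind zinc, copper and other metal ions. The mouse has 4 such genes, Mt1, Mt2, Mt3 and Mt4, and all 4 were on the arrays, out of 30155 gene names. They were taken as the probes that carry these gene names and are not control spots, which gave 5 probes, since Mt1 had a pair of them. Mt2 had been picked for its higher level with the miR-29b mimic and Mt4 for its lower level in incised skin, so values in those comparisons were chosen by the same data and are given as a description, with no test. All 5 probes were well above background in Cy5 on all 12 arrays and passed the filter on dim probes, as part of 22036 genes kept.

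The arrays, 12 in all and 3 in each of 4 groups, were made from skin of C57BL/6 males aged about 8 weeks. The groups were sutured 1 cm incisions injected with 100 nmol miR-29b mimic (promiR-29 in the labels), incisions injected with PBS, intact skin injected with 100 nmol antimiR-29, and intact skin injected with PBS. Injections were intradermal and followed wounding by 72 h in the incised groups, and skin was taken 24 h later, so all 4 groups include the injection itself. A mimic is a synthetic RNA that acts as the microRNA, and an antimiR is an oligonucleotide that binds and blocks it. None of the 4 groups received a control oligonucleotide. An effect of injecting an oligonucleotide as such therefore cannot be told apart from an effect through miR-29. Skin RNA was labelled with Cy5 and a universal mouse reference RNA with Cy3 on every array, and the values below are log2 ratios of skin over reference, in which a difference of 1 is a doubling.

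Mt1 and Mt2 are expressed in most tissues and are induced by zinc and cadmium through the transcription factor MTF1, which binds metal response elements in their promoters. They are also induced by glucocorticoids, by IL-6 and by oxidative stress, and both are known to rise in wounds and inflamed tissue. Mt3 is best known from the brain, where it was described as a growth inhibitory factor. Mt4 is known from stratified squamous epithelium such as the upper layers of the epidermis.

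The sequences upstream of the 4 genes are shown because metal response elements are the sites through which zinc acts on Mt1 and Mt2. Mt3 and Mt4 are set beside them. Each line gives the 250 bases before the annotated transcript start, from RefSeq on GRCm38.p6, with every match to the core of the metal response element in capitals. The core was searched as TGCACNC or TGCGCNC on both strands, and no match overlapped another.
Mt1 (chr8:94178839-94179088, plus strand): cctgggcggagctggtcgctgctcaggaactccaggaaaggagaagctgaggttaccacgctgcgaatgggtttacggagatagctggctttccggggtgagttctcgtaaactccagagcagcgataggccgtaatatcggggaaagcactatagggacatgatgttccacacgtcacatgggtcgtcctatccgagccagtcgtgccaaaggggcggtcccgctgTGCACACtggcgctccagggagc
Mt2 (chr8:94172368-94172617, plus strand): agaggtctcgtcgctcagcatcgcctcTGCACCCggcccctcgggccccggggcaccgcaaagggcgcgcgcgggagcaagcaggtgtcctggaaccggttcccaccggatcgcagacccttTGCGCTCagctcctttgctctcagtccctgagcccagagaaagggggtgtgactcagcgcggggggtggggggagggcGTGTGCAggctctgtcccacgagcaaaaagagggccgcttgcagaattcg
Mt3 (chr8:94152357-94152606, plus strand): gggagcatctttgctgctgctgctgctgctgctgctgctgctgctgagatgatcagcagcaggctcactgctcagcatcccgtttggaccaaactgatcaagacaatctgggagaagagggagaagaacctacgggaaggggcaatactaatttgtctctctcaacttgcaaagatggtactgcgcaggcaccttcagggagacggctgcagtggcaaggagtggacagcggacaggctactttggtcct
Mt4 (chr8:94136954-94137203, plus strand): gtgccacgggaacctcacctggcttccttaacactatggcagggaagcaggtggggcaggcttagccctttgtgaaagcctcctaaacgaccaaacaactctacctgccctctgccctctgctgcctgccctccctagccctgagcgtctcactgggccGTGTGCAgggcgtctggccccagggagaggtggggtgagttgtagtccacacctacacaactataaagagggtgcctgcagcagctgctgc

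Mt2 held 3 cores in this window, 2 of them on the sense strand, while Mt1 and Mt4 held 1 each and Mt3 held 0. Of 32851 promoters in the same table, 21.4% held at least 1 core in their 250 bases and 1.26% held at least 3. In the 50 bases after the annotated start, or reaching across it, a further 2 cores lay in Mt1, 1 in Mt2, 1 in Mt3 and 0 in Mt4. Mt2 also held 1 match to the antioxidant response element TGACNNNGC, the site bound by NRF2, which 10.2% of the promoters held. The letters TATAAA, searched on the sense strand, began 30 bases before the start of Mt4 (position -30) and were not in the windows of the other 3 genes; 7.59% of all promoters held them. These matches describe letters only, and the windows depend on which transcript start is annotated.

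**Figure D1:**
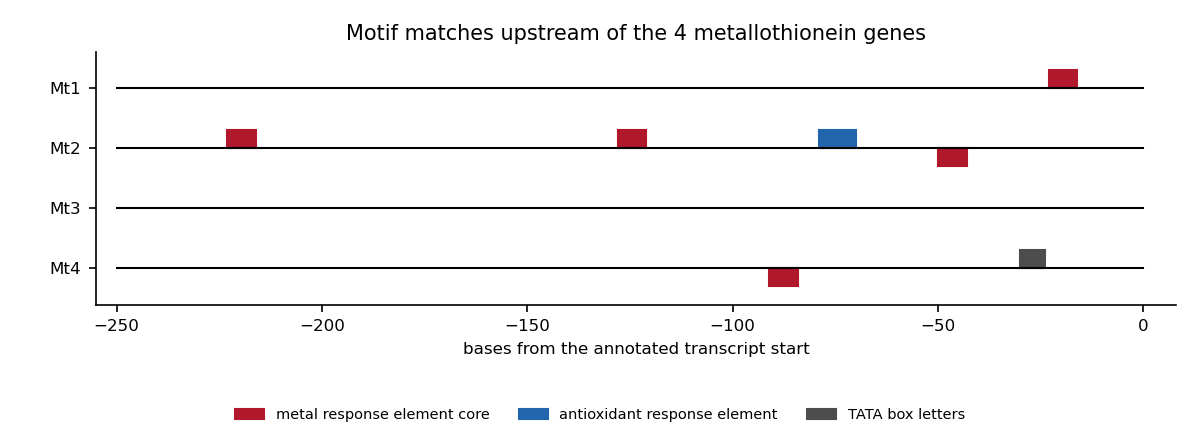
Motif matches in the 250 bases before the annotated transcript start of each gene, with the horizontal axis in bases from that start. Boxes above a line are on the sense strand and boxes below it on the other strand; Mt2 carries 3 metal response element cores and the antioxidant response element match, and Mt3 carries 0 of either.

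Mt2 and Mt1 stood high in mimic-treated incisions. Mt2, measured by 1 probe (A_51_P246317, mm9 chromosome 8, bases 96697371 to 96697430), had log2 ratios of 1.73 and 1.27 on mimic arrays 1 and 2. In PBS-injected incisions it had 0.28, 0.055 and -0.038. On mimic array 3 the Mt2 spot was marked as an outlier in Cy5 by the extraction program and was left out, and its ratio with the mark ignored was 1.26. Both mimic values, and the value left out, lay above all 3 values in PBS incisions.

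The mean log2 ratio of Mt2 was 1.50 ± 0.32 in mimic-treated incisions (SD, n = 2) and 0.099 ± 0.16 in PBS incisions (SD, n = 3). The difference was 1.40 ± 0.23 (SE of the fit), a 2.64-fold higher ratio with the mimic, which was the 11th highest of 22036 genes. With the outlier spot kept it was 1.32. Because whole skin was profiled, a change in RNA per cell and a change in the number of cells that make it cannot be told apart in any of these comparisons.

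Mt1 was read by probes A_66_P111660 (mm9 chromosome 8, bases 96704165 to 96704224) and A_52_P423810 (bases 96703844 to 96703903). The brighter, A_66_P111660, gave log2 ratios of 0.95 and 0.27 on mimic arrays 1 and 2, against -0.40, -0.42 and -0.75 in PBS incisions. Its spot on mimic array 3 was marked as an outlier in both dyes and left out, and with the mark ignored its ratio was 0.44. The dimmer Mt1 probe had values on all 3 mimic arrays, at 0.87, 0.076 and 0.52, against -0.57, -0.59 and -0.60 in PBS incisions. For both probes the mimic values lay wholly above those of PBS incisions.

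The log2 difference for Mt1 was 1.13 ± 0.28 by the brighter probe (2.20-fold), the 30th highest of all genes, and 1.08 ± 0.31 by the dimmer (2.11-fold). Within its group, mimic array 1 had the highest ratio on both Mt1 probes, on Mt2 and on Mt3. Without that array the Mt1 difference was 0.79 by the brighter probe, and the Mt2 difference was 1.17.

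Mt3 had smaller differences in the same direction. Its probe (A_52_P320971, mm9 chromosome 8, bases 96677927 to 96677986) gave log2 ratios of 1.81, 1.44 and 1.30 with the mimic, against 1.00, 1.04 and 1.05 in PBS incisions. The groups did not overlap, and the difference was 0.48 ± 0.13, a 1.40-fold higher ratio. Mt4 (A_51_P424272, mm9 chromosome 8, 96662155 to 96662693, a probe whose position spans an intron) had ratios of 1.98, 1.96 and 2.64 with the mimic, against 1.41, 0.93 and 2.15 in PBS incisions. These groups overlapped, and the Mt4 difference was 0.70 ± 0.28.

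For all genes the mimic comparison called 0.191% higher and 0.349% lower at a Benjamini-Hochberg adjusted p under 0.05 in limma, and in 23.9% the values of both groups did not overlap, in either direction. Mt1, Mt2 and Mt3 are among the genes without overlap, and as the comparison was used to pick Mt2 nothing is read from that count.

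**Figure D2:**
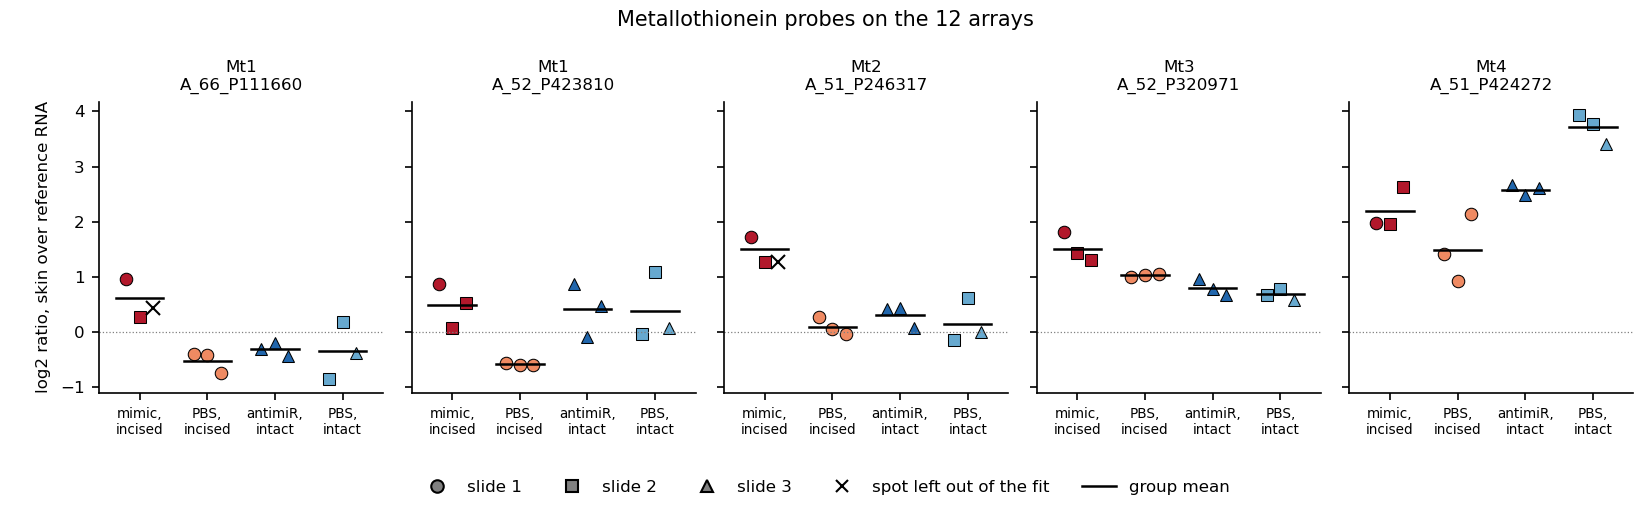
Log2 ratio of skin over reference RNA (vertical axis) for the 5 metallothionein probes on the 12 arrays, by group, with symbols for the slide and crosses for spots marked as outliers and left out. Mt2 lies at 1.27 and 1.73 with the mimic and at or below 0.62 in the other 3 groups, while Mt4 is highest in PBS-injected intact skin, at 3.42 to 3.93.

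The brightness of the spots in each dye bears on how firmly the Mt1 and Mt2 ratios can be read. Cy3 carried the same reference RNA on every array, yet the Cy3 signal of the brighter Mt1 probe was 113818, 80511 and 28292 on the mimic arrays, against 152726, 144509 and 150925 on the PBS incision arrays. The Cy3 signal of Mt2 was 28885, 41870 and 25623 on the mimic arrays, against 48503, 49690 and 52885 in PBS incisions. In both cases the reference dye was dimmer on every mimic array than on the PBS incision arrays. The antimiR arrays were lower too on the brighter Mt1 probe, with Cy3 signals of 55223, 116188 and 114308, against 145148, 133100 and 130644 on the intact PBS arrays.

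In the skin dye these groups differed without overlap for Mt2, but not for the brighter Mt1 probe. Mt2 had Cy5 signals of 73826, 69183 and 55082 with the mimic, against 38054, 35451 and 35834 in PBS incisions, so the groups did not overlap in Cy5 either. The brighter Mt1 probe had Cy5 signals of 161534, 65695 and 34642 with the mimic, against 70970, 69594 and 60180 in PBS incisions, and these overlapped. Fitted on Cy5 alone, with the outlier spots of mimic array 3 left out, the log2 difference was 0.94 for Mt2 and 0.58 for Mt1. The Mt1 spot so left out had the lowest Cy5 signal of the 12 arrays. What lowers Cy3 on these bright spots was not tested.

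The dimmer Mt1 probe did not share this feature. Its Cy3 signals were 500, 429 and 524 with the mimic, against 504, 470 and 462 in PBS incisions. Its Cy5 signals were 885, 413 and 831 with the mimic, against 316, 305 and 284 in PBS incisions. The Mt3 probe likewise had Cy3 signals of 321, 340 and 317 with the mimic, against 300, 277 and 175 in PBS incisions.

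Across all 12 arrays, Cy3 varied 5.40-fold on the brighter Mt1 spot, 51.4-fold on the Mt2 spot and 1.29-fold on the dimmer Mt1 spot. The median among the brightest 5% of spots was 1.63-fold. The wide range of Mt2 came from intact PBS array 2, where its spot was dim in both dyes (1443 in Cy5 and 1028 in Cy3) although it was not marked as an outlier. On the other 11 arrays Mt2 had 25623 to 52885 in Cy3.

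**Figure D3:**
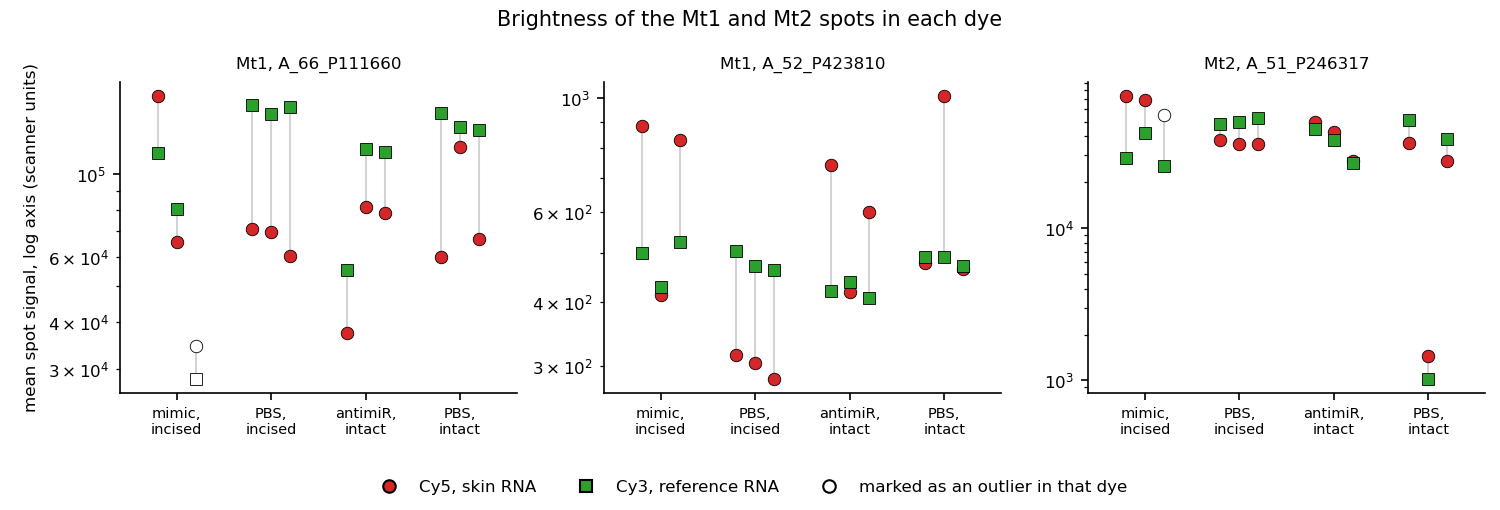
Mean spot signal in Cy5 (skin) and Cy3 (reference) for both Mt1 probes and for Mt2 on each array, in scanner units on a logarithmic axis with its own range in each panel. On the bright Mt1 and Mt2 spots Cy3 is lower on all 3 mimic arrays than in PBS incisions, and on the dimmer Mt1 probe Cy3 stays between 407 and 524; the Mt2 spot of intact PBS array 2 is dim in both dyes.

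Mimic array 1 shared a slide with the 3 PBS incision arrays, and mimic arrays 2 and 3 lay on the slide of intact PBS arrays 1 and 2. Within the first slide, the differences of mimic array 1 from PBS incisions were 1.63 for Mt2, 1.48 for Mt1, 0.78 for Mt3 and 0.49 for Mt4. A fit with slide as a fixed block gives the same 4 values, since only that slide holds both groups.

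In incised against intact skin, both injected with PBS, Mt4 differed most among the 4 genes. Its log2 ratios were 1.41, 0.93 and 2.15 in incised skin, against 3.93, 3.78 and 3.42 in intact skin. Every incised value lay below every intact one. The difference was -2.21 ± 0.28, which puts the incised ratio at 0.215 of the intact ratio, and it was the 6th lowest of 22036 genes. The Mt4 signal in Cy5 was 736, 543 and 1122 in incised skin, against 5491, 4325 and 1892 in intact skin, where the lowest value came from an array with a low Cy3 signal too (173). Over the alternatives run, the Mt4 difference ranged between -2.54 and -1.93. Each slide held arrays of only 1 of these groups, so no slide gives a value of its own; with slide as a fixed block, which ties them through the mimic arrays, the difference was -2.05.

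The other members did not follow Mt4. Mt2 differed by -0.055 ± 0.21, and its incised values lay within the intact range of -0.15, 0.62 and -0.0048. The value of 0.62 came from the spot that was dim in both dyes, and the incised values of 0.28 and 0.055 lay above the other intact values. Mt1 differed by -0.17 ± 0.25 by the brighter probe, with intact values of -0.86, 0.18 and -0.37 on either side of the incised ones. The dimmer Mt1 probe gave -0.96 ± 0.31, with intact values of -0.044, 1.10 and 0.067 that all lay above the incised ones, so the Mt1 probes disagree here. Both Mt1 probes and Mt2 were highest on intact PBS array 2 within their group. Without that array Mt1 differed by 0.093 by the brighter probe and Mt2 by 0.18.

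Mt3 was 1.00 to 1.05 in PBS incisions, against 0.68, 0.79 and 0.58 in intact skin. The groups did not overlap and the difference was 0.35 ± 0.13, but with slide as a fixed block it was -0.14. In this comparison 9.82% of genes were called higher and 5.29% lower, and in 34.9% the groups did not overlap. Mt3, Mt4 and the dimmer Mt1 probe belong to those that did not overlap, from which nothing is read for Mt4, as it was picked here.

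The antimiR comparison shares its intact PBS arrays with the wounding comparison through which Mt4 was picked. High Mt4 values on those arrays, on which that choice rests, favour a lower value in any other group set against them, so Mt4 is described here too, with no test, and Mt1, Mt2 and Mt3 are tested. In intact skin Mt4 had log2 ratios of 2.66, 2.48 and 2.61 with antimiR-29, against 3.93, 3.78 and 3.42 with PBS. All 3 antimiR values lay below all 3 PBS values. The log2 difference was -1.13 ± 0.28, which puts the antimiR ratio at 0.458 of the PBS ratio, and it was the 101st lowest of all genes. In this comparison 4.36% of genes were called lower and 5.06% higher, and 25.7% had groups that did not overlap.

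With single arrays left out the Mt4 difference ran between -1.27, without intact PBS array 3, and -1.01, without intact PBS array 1. Intact PBS array 3 shared a slide with the 3 antimiR arrays, and against that array alone the difference was -0.83, as in the fit with slide as a fixed block. On Cy5 alone it was -0.67.

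Mt1, Mt2 and Mt3 did not pass the test with antimiR-29. Mt2 had ratios of 0.41, 0.43 and 0.075 with antimiR, against -0.15, 0.62 and -0.0048 with PBS, a difference of 0.15 ± 0.21 (limma adjusted p = 0.721). Mt1 had -0.31, -0.20 and -0.43 with antimiR, and the difference was 0.035 ± 0.25 (limma adjusted p = 0.956) by the brighter probe and 0.039 ± 0.31 (0.958) by the dimmer, whose antimiR values were 0.87, -0.097 and 0.47. Mt3 had 0.96, 0.79 and 0.66 with antimiR, a difference of 0.12 ± 0.13 (limma adjusted p = 0.618). In each of these the groups overlapped. For Mt2 the overlap rested on the value of 0.62, from the spot of intact PBS array 2 that was dim in both dyes. Without that spot, and with outlier spots kept, the Mt2 difference was 0.38 (limma adjusted p = 0.204). The standard errors of 0.13 to 0.31 leave small differences undetectable.

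**Figure D4:**
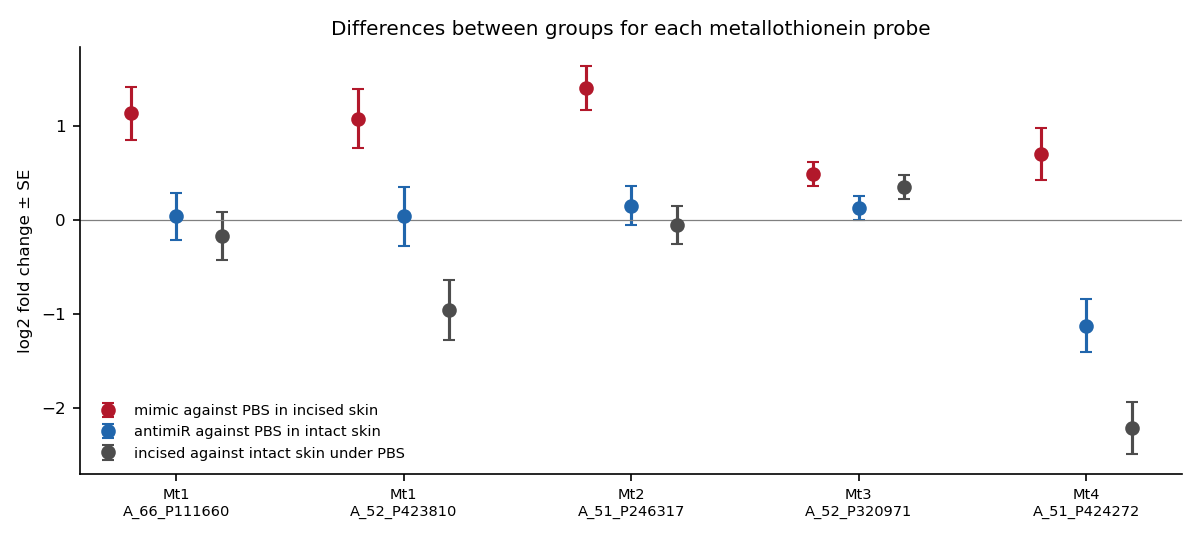
Log2 fold change with its standard error (vertical axis) for each metallothionein probe in the 3 comparisons. Mt1 and Mt2 lie above 1 with the mimic and near 0 with antimiR-29, and Mt4 lies at -1.13 with antimiR-29 and -2.21 in incised against intact skin.

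Taking the 4 groups in order, Mt2 was highest with the mimic (mean log2 ratio 1.50), followed by antimiR (0.31), intact PBS (0.15) and incised PBS skin (0.099), and the last 3 overlapped. Mt1 by its brighter probe ran in the same order, at 0.61, -0.31, -0.35 and -0.52, with overlap among the last 3 again. The dimmer Mt1 probe had means of 0.49 with the mimic, 0.41 with antimiR, 0.37 in intact PBS skin and -0.59 in PBS incisions, and its first 3 groups overlapped, so by that probe PBS incisions alone stood apart. Mt3 stood at 1.51 with the mimic, 1.03 in PBS incisions, 0.80 with antimiR and 0.68 in intact PBS skin, and only the last pair overlapped. Mt4 had another order, with 3.71 in intact PBS skin, 2.58 with antimiR, 2.19 with the mimic and 1.49 in PBS incisions. The antimiR values of Mt4 overlapped those of the mimic, and the mimic values overlapped those of PBS incisions.

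Across arrays the correlations depended on the Mt1 probe. Pearson's r was 0.96 between Mt1 (brighter probe) and Mt2 over the 11 arrays with both values, 0.85 between Mt2 and Mt3, and 0.74 between Mt1 and Mt3. The pair of Mt1 probes had r = 0.59. Mt4 had -0.16 with Mt1 (brighter probe), -0.22 with Mt2 and, over 12 arrays, -0.52 with Mt3. The dimmer Mt1 probe had r = 0.50 with Mt2 and, over 12 arrays, 0.50 with Mt4 and 0.17 with Mt3. These are descriptions of arrays in 4 treatment groups that share slides and a reference.

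The genes whose ratios ran most like Mt2 over those 11 arrays were Pip5k1a (r = 0.98), Tnip2 (0.95), Ankrd66 (0.94) and Rpain (0.93), out of 15283 genes compared. For Mt1 they were Pip5k1a (0.96), Rpain (0.95), Tnip2 (0.93), Rrp7a (0.87) and Pid1 (0.86). Mef2a, Ehmt1, Washc5, Knop1 and Tfec were most like Mt3 (0.94 to 0.95), and Wdr74 (0.93), Nop14 (0.93), Nkrf (0.92), Hsdl1 (0.92) and Cltb (0.91) most like Mt4, over 12 arrays.

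Genes of zinc and copper handling and of 3 pathways known to act on Mt1 and Mt2 were followed as lists. With the mimic, 0 genes in any of the 7 lists passed limma's test, while at an unadjusted p under 0.05 there were 2 of 7 measured zinc exporters, 2 of 13 zinc importers, 1 of 6 genes of metal-responsive transcription and 1 of 12 copper genes. Of all genes, 12.1% had an unadjusted p under 0.05 in this comparison. The lists share some genes, and Slc30a1 is counted here both as a zinc exporter and under metal-responsive transcription. Slc30a1, the zinc exporter that MTF1 induces together with Mt1 and Mt2, had a log2 ratio of 1.33 ± 0.13 with the mimic, against 0.99 ± 0.092 in PBS incisions (SD, n = 3 each), a difference of 0.33 ± 0.12 (limma adjusted p = 0.294). Mtf1 itself differed by 0.0089 ± 0.11 (0.989).

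Of the NRF2 list of oxidative response genes, 13 of 15 were higher with the mimic, with a median of 0.25 against -0.0021 for all genes, and 4 had an unadjusted p under 0.05. Gsr, glutathione reductase, differed by 0.57 ± 0.14 (limma adjusted p = 0.122) and Hmox1, the haem oxygenase, by 0.67 ± 0.20 (0.182). The glucocorticoid list had a median of 0.21, with 8 of 12 positive and 0 at an unadjusted p under 0.05, and Fkbp5 at 0.67 ± 0.36 (0.501). The IL-6 and STAT3 list had a median of 0.25, with 16 of 20 positive and 1 at an unadjusted p under 0.05, Lcn2 at 1.57 ± 0.48 (0.188). The medians of zinc exporters, zinc importers, metal-responsive transcription and copper handling were 0.11, 0.061, -0.0025 and 0.075.

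In incised against intact skin, where 9.82% of all genes were called higher and 5.29% lower, more list genes were called, though the medians of the NRF2 and IL-6 lists (0.069 and 0.17) were below those with the mimic. Of the glucocorticoid list, 5 of 12 fell and 0 rose, and each of the 12 values was below 0 (median -0.77, against 0.0041 for all genes). Dusp1, a phosphatase gene, was at -0.48 ± 0.13 in incised skin, against 1.03 ± 0.39 in intact skin (SD, n = 3 each), and fell by 1.51 ± 0.21 (limma adjusted p = 0.00181). Nfkbia, Errfi1 and Klf9 also fell, by 0.60, 1.10 and 0.94 on the log2 scale, as did Tsc22d3, named after its value was seen, by 1.11. Of the IL-6 and STAT3 list, 5 of 20 rose and 1 fell: Timp1, an inhibitor of matrix proteases, rose by 1.70 ± 0.26 (0.00255), the cytokine gene Il6 by 1.03 ± 0.28 (0.0332) and Saa3, an acute phase gene, by 2.50 ± 0.70 (0.0364), while the receptor gene Il6st fell by 0.39 ± 0.091 (0.0165). With slide as a fixed block 12 of all 22036 genes were called in this comparison and 0 in the 3 pathways, whose calls numbered 0 to 7, 0 to 6 and 0 to 3 (glucocorticoid, IL-6 and NRF2) over the alternatives.

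Metal handling had single calls in the wounding comparison. Slc40a1, the iron exporter ferroportin, rose by 1.00 ± 0.23 (limma adjusted p = 0.0172) and was the only call among 6 genes of metal-responsive transcription. The zinc importer gene Slc39a1 rose by 0.53 ± 0.11 (0.0102), 1 of 13 measured, and the zinc exporter gene Slc30a2 fell by 0.40 ± 0.095 (0.0182), 1 of 7. Sco1, a copper chaperone of cytochrome oxidase, fell by 0.40 ± 0.10 (0.0248), 1 of 12. Over the alternatives these lists had 0 to 1 calls for metal-responsive transcription and for zinc importers, 0 to 2 for zinc exporters and 0 to 3 for copper handling. Of the NRF2 list, 3 of 15 rose, Hmox1 by 1.15 ± 0.20 (0.00488), Txn1 by 0.49 ± 0.10 (0.0122) and Ftl1 by 0.58 ± 0.16 (0.0305).

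With antimiR-29 the zinc importer Slc39a4 rose by 0.53 ± 0.11 (limma adjusted p = 0.011), at -1.64 ± 0.12 with antimiR, against -2.18 ± 0.066 with PBS (SD, n = 3 each), and it was the only call of 13. The acute phase genes Saa1 and Saa3 rose by 2.56 ± 0.60 (0.0227) and 2.76 ± 0.70 (0.0328), 2 of 20 in the IL-6 and STAT3 list, and Errfi1 fell by 0.88 ± 0.23 (0.0379), 1 of 12 in the glucocorticoid list. Limma called 0 genes among zinc exporters, metal-responsive transcription, copper handling and the NRF2 list, where 2 of 7, 3 of 6, 2 of 12 and 1 of 15 had an unadjusted p under 0.05, against 23.9% of all genes.

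**Figure D5:**
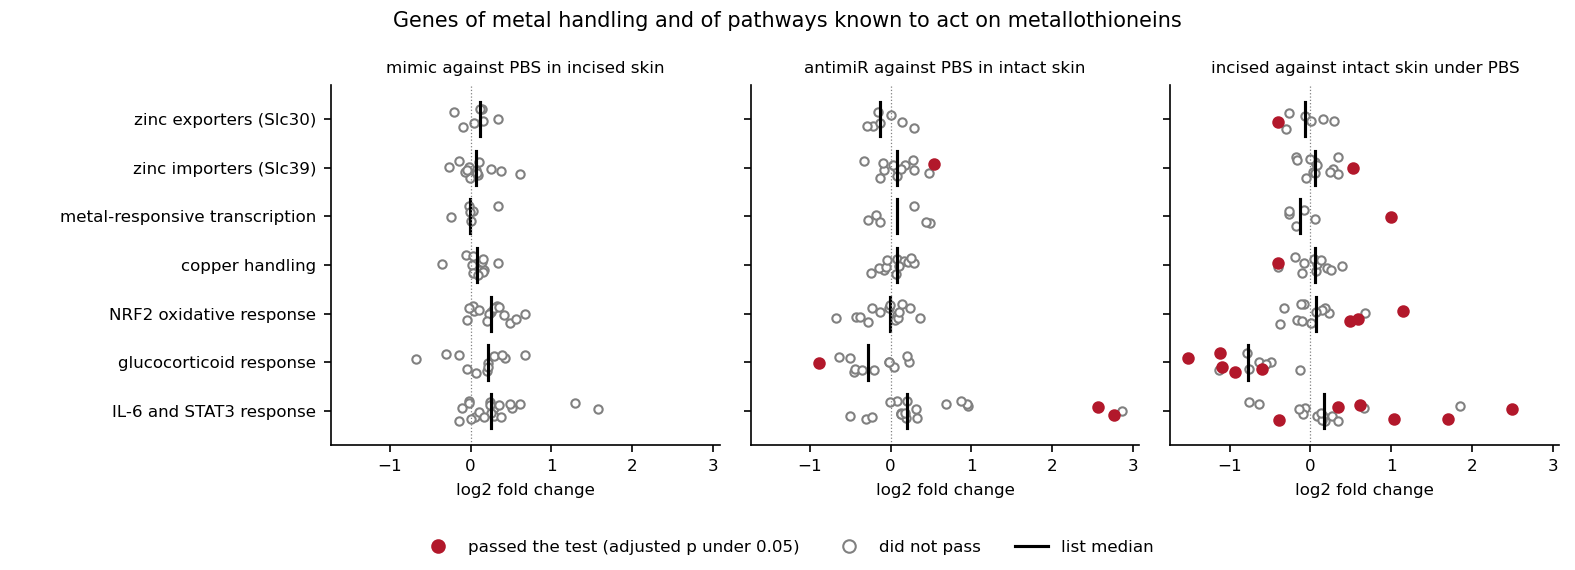
Log2 fold change (horizontal axis, the same in each panel) of every measured gene in the 7 pathway lists for the 3 comparisons, with filled points for genes past the threshold and bars for list medians. With the mimic 0 points are filled, and in incised against intact skin the 12 glucocorticoid genes all lie below 0.

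Because Mt4 belongs to the differentiated epidermis, markers of the epidermis were set beside it. All 7 basal keratinocyte and 28 differentiated epidermis markers were well above background on all 12 arrays. In incised against intact skin, 0 differentiated markers fell and 1, the transglutaminase gene Tgm3, rose by 0.30 (limma adjusted p = 0.0459), and the median of the list was 0.15. Over 20 alternatives 0 to 1 of the list were called, and the count changed in 14 of them. With antimiR-29, 0 of 28 passed limma's test and 2 had an unadjusted p under 0.05, but 26 were negative and the median was -0.21. With the mimic, where Mt4 differed by 0.70, 0 of 28 passed and 2 had an unadjusted p under 0.05. There 24 were negative and the median was -0.19. A level was taken for the list on each array, as the median over its genes of log2 ratios centred on each gene. It was -0.33 to -0.065 with antimiR and -0.33 to 0.38 with PBS in intact skin. Basal markers gave 0 calls in each comparison, with 0, 2 and 4 of 7 at an unadjusted p under 0.05 for mimic, antimiR and wounding, against 12.1%, 23.9% and 31.0% of all genes.

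The counts of other markers stand beside unlike shares of all genes. In incised against intact skin 9.82% of all genes were called higher, and with antimiR-29 5.06% higher and 4.36% lower. With the mimic only 0.191% were called higher and 0.349% lower. Wound-activated keratinocyte markers rose in 3 of 12 cases in incised skin, with a median of 1.45, and S100a9, Krt16 and Sprr2d were those that passed. Over the alternatives 0 to 7 of them were called. Macrophage markers rose in 8 of 14 cases in incised skin, with a median of 0.73 and 1 to 8 calls over the alternatives. With antimiR-29, 5 of 14 macrophage markers rose but 7 of 14 were negative, the median was 0.062 and 4 to 10 were called over the alternatives. With the mimic, 3 of 12 fibroblast markers fell (median -0.81) and 3 of 15 skeletal muscle markers fell (median -0.56), and over the alternatives 0 to 4 and 0 to 5 were called. At an unadjusted p under 0.05 there were 7 of 12 and 15 of 15, against 12.1% of all genes, and 15 of 15 muscle markers were negative. Skeletal muscle markers were also negative in 15 of 15 cases with antimiR-29 (median -0.39). There 2 were called lower, and 0 to 5 were called over the alternatives. Of 11 neutrophil markers 1 rose with the mimic, the collagenase gene Mmp8 by 2.15 ± 0.38 (limma adjusted p = 0.0383), with 0 to 2 called over the alternatives. Cxcr2 differed by 1.34 ± 0.27 (0.0608). Of these 11 markers 3 were negative with the mimic, the lowest at -0.12. Their median difference was 0.34, and 3 had an unadjusted p under 0.05. Neutrophil markers called higher were 2 of 11 with antimiR-29 and 2 of 11 in incised against intact skin. Over the alternatives 0 to 2 and 0 to 4 were called. The median level of the neutrophil markers was 0.47 to 0.75 with the mimic and -0.17 to 0.36 in PBS incisions. That of the macrophage markers, with 0 of 14 called and 4 at an unadjusted p under 0.05 (12.1% of all genes), was 0.48 to 0.62 with the mimic. In PBS incisions the macrophage level was 0.29 to 0.44. Between these groups 6 of the 14 macrophage markers were negative with the mimic, and the median difference was 0.12. Intact PBS array 2 had a hair follicle marker level of 2.87, against -0.43 to -0.14 on the other 11 arrays, and intact PBS array 3 had the lowest median correlation within its group, 0.921. Mt4 differed by -2.18 without array 2 and by -2.36 without array 3 in the wounding comparison. The part of these cell types in the metallothionein values was not tested.

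The 4 protein-coding genes on either side of the cluster were added after the members' values had been seen. With the mimic and with antimiR-29, 0 of these 8 were called in limma. At an unadjusted p under 0.05 there were 2 in each, against 12.1% and 23.9% of all genes. In incised against intact skin Bbs2 and Herpud1 fell by 0.72 and 0.56 and Ogfod1 rose by 0.34. That is 2 of 8 called lower and 1 higher, against 5.29% and 9.82% of all genes.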

How the data were processed

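RNA of 12 skin samples was hybridised to 2-colour arrays. Per the file headers, the authors' scanner files hold spot and background intensity in each dye and processed intensity from Agilent Feature Extraction 11.5.1.1, with a log10 ratio of processed Cy5 over Cy3. A deposited table gives log2 values by gene name; 0 of its columns went unused, and set against the scanner ratios it held skin over reference (median correlation 0.912).

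In R 4.3.3 with limma 3.58.1, mean signals were corrected by normexp (offset 50) and normalized by loess within each array, control spots at weight 0. Outlier spots were left out. Of 39429 probes, 28838 were kept (Cy5 well above background on at least 3 arrays, which held for 65.6% to 73.8% of probes per array), for 22036 genes, each read by its brightest probe. Of these, 1177 had no value on some array. No spot was saturated. The number of arrays limits the precision. The labels call the samples biological replicates. Group means were fitted over all 12 arrays with lmFit and eBayes; all adjusted p values are limma's after Benjamini-Hochberg over all genes, 2-sided, at a threshold of 0.05. Slides were read from array barcodes, 3 slides of 4 arrays.

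A test of Mt4 with antimiR-29 had been planned and is not given, since Mt4 was picked through the same intact PBS arrays. Members and lists were chosen with earlier results of these data known. The genes named are the members, up to 4 of smallest p in a list and comparison, and for each member the 5 of highest Pearson r, of which 1 for Mt2 is not reported here. Probe positions are on mm9, as the file headers give them, and promoters on GRCm38.p6. Alternatives covered background correction, processed signals, scaling, Cy5 alone, the deposited table, filters, outlier spots, probe choice, variance model, slide, replicate numbers and leaving out each array. The fit was tested on simulated data.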

Additional observations from a re-analysis of the deposited data

How the results depend on the processing

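The direction of the Mt2 and Mt4 differences held under every alternative run for Mt2 with the mimic (0.94 to 1.63), Mt4 with the mimic (0.42 to 1.03) and Mt4 in incised against intact skin (-2.54 to -1.93). Mt1 with the mimic gave 0.58 on Cy5 alone, 1.48 with slide as a fixed block and within slide 1, and 0.79 to 1.48 with single arrays left out. Mt2 with the mimic gave 0.94 on Cy5 alone. With mimic array 1 or 2 left out, these Mt1 and Mt2 differences rested on 1 mimic array. Mt3 with the mimic gave 0.83 on Cy5 alone and 0.78 with slide as a fixed block and within slide 1.

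In incised against intact skin, Mt1 gave -0.25 from processed signals of the brighter probe, -0.57 as the mean over its probes and -0.96 by the dimmer probe. In the authors' deposited table, which has values by gene name, Mt1 gave -0.72. With slide as a fixed block it gave -0.87, and with single arrays left out -0.43 to 0.093, the last without intact PBS array 2. Mt2 gave 0.093 from processed signals and in the deposited table, 1.70 on Cy5 alone (where the dim spot of intact PBS array 2 enters without its Cy3), -0.59 with slide as a fixed block, -0.21 to 0.18 with single arrays left out, and 0.18 without the dim spot. Mt3 gave 0.54 from processed signals and in the deposited table, 0.21 on Cy5 alone and -0.14 with slide as a fixed block.

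With antimiR-29, Mt4 gave -0.67 on Cy5 alone, -0.83 with slide as a fixed block and within slide 3, and -1.27 to -1.01 with single arrays left out. Mt1 gave -0.22 on Cy5 alone and -0.22 to 0.30 with single arrays left out, negative without intact PBS array 1 (-0.22) and without antimiR array 2 (-0.02). Mt2 gave 1.89 on Cy5 alone (again with the dim spot), 0.31 with slide as a fixed block, 0.38 without the dim spot, and -0.0017 to 0.38 with single arrays left out, negative without intact PBS array 1. Neither passed the test in any alternative.

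Genes called with the mimic numbered 119 and, under alternatives, 33 from processed signals, 39 on Cy5 alone, 10 in the deposited table, 74 with trend and robust variance, 0 with slide as a fixed block, 59 with slide as a random block, 77 with the replicate block, 449 with only those groups in the fit, and 1 to 51 with single arrays left out. With antimiR-29 there were 2074, and 1251 on Cy5 alone, 581 with only those groups in the fit and 1169 to 2230 with single arrays left out. In incised against intact skin there were 3329, and 1833 on Cy5 alone, 2028 in the deposited table, 12 with slide as a fixed block, 1496 with only those groups in the fit and 1775 to 3129 with single arrays left out. The causes were not tested.

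Replicate numbers did not pair the arrays: the correlations of same-numbered deviations ran between -0.43 and 0.29. With the replicate block the antimiR differences of Mt1, Mt2 and Mt3 again did not pass the test (limma adjusted p = 0.578 to 0.959). The dimmer probe and the dim spot were examined after the data had been seen.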
